A study of Mus musculus with 4 samples.

Results

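The cyclins and kinases that drive cells through G1 phase were examined in newly made RNA of double positive (DP) thymocytes, the stage of T cell development at which CD4 and CD8 are both on the surface. The 8 members were the D cyclin genes Ccnd1, Ccnd2 and Ccnd3, the E cyclin genes Ccne1 and Ccne2, and the kinase genes Cdk2, Cdk4 and Cdk6. They were found by gene name and were 8 of 24984 rows of the deposited table. RNA was labelled by TTchem-seq, in which cells take up 4-thiouridine (4sU) for a short time and the labelled RNA is fragmented, purified and sequenced, so that the fragments over a gene, introns included, follow its current transcription and not its stock of mRNA. WT cells were of the genotype Tox4;F/F and cKO cells of the genotype Tox4;F/F;Lck+, with 2 libraries each. Both genotypes carry floxed Tox4 alleles with loxP sites around exons 4 to 6, and in cKO mice Cre from the proximal Lck promoter deletes them from the DN3 stage on, before cells become DP. The mice were littermates on a C57BL/6 background, 6 to 8 weeks old. The comparison asks whether loss of Tox4, a regulator of PP1 phosphatases, goes with a different transcription of the G1 machinery.

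A D cyclin binds CDK4 or CDK6, and the complex phosphorylates RB family proteins, which then release E2F transcription factors. E2F turns on the E cyclins, which activate CDK2 and complete the step into S phase. In the thymus this machinery is known from the burst of division that follows the pre-T cell receptor signal, which depends on cyclin D3 and CDK6, whereas most DP thymocytes are small cells that no longer divide.

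Promoter windows of 5 members, from 250 bases before to 50 bases after the start of transcription, were taken from RefSeq on build GRCm38.p6, and 4 of the windows are shown because their members carry the highest levels and differ in the letters known for MYC and E2F factors. Both strands were searched for the MYC E-box CACGTG and for the E2F letters TTTCCCGC, TTTGGCGC, TTTCGCGC and TTTGCCGC, which do not overlap with the E-box. Capitals mark the matches, and each sequence runs 5′ to 3′ on the strand of its gene.
Cdk4, chr10:127063285-127063584, plus strand: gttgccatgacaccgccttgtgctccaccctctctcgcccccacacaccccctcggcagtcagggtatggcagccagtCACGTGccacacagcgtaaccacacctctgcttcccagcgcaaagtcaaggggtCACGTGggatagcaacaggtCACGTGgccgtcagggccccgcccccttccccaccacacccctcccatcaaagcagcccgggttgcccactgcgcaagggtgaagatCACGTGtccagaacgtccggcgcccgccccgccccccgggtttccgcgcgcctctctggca
Cdk6, chr5:3343643-3343942, plus strand: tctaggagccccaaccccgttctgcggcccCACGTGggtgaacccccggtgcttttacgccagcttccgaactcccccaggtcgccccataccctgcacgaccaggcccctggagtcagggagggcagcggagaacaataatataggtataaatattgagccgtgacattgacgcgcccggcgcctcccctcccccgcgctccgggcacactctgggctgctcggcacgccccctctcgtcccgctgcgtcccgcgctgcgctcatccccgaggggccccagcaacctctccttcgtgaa
Cdk2, chr10:128705002-128705301, minus strand: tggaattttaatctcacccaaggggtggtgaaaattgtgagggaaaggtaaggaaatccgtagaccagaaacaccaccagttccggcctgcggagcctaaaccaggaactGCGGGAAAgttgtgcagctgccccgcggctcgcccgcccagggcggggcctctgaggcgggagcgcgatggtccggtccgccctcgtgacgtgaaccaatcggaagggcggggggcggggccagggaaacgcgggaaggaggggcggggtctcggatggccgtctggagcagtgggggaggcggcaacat
Ccnd3 downstream start, chr17:47593217-47593516, plus strand: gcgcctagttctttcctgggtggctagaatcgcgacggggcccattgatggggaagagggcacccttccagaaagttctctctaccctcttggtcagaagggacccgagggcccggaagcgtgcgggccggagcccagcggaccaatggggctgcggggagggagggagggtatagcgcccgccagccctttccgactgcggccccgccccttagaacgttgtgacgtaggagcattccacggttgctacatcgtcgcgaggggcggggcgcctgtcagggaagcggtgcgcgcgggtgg
The Cdk4 window held 4 E-boxes and the Cdk6 window held 1. An E-box was present in 7.15% of all 32851 promoter windows of this length. The Cdk2 window held 1 E2F match, on the other strand, and such a match was present in 2.26% of all windows. The window shown for Ccnd3, that of its upstream start, chr17:47504801-47505100, and that of Ccne1, chr7:38107441-38107740, held 0 matches of either kind. A match describes letters only, and nothing was measured here about binding.

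The libraries held between 38429786 and 48690591 fragments. Values are given in CPM, the usual scaling in which each library's fragments over all genes add up to the same total. WT replicate 1 stood apart from the other 3 libraries. Xist was at 172 CPM there against at most 2.36 CPM in the others, and 4 Y-linked genes summed to 1.55 CPM there against 267 to 310 CPM, so it looked female and the others male. The study's methods describe gender-matched mice, which these values do not bear out. Sex could not be told apart from the other traits of WT replicate 1. Results that rest on it are given with and without it. Tox4 itself was at 74.0 and 70.3 CPM in WT and at 59.3 and 57.2 CPM in cKO (log2 fold change -0.31, SE 0.10, DESeq2 adjusted p = 0.0453), counted over the whole gene and not over the deleted exons. The direction held in every setting, but the call was lost with edgeR (0.122), voom (0.126), total count factors (0.0511), independent filtering off (0.0821), a replicate block (0.361 by DESeq2 and 0.140 by edgeR) and without each single library (0.196 to 0.792). The 9 DP markers summed to between 3066 and 3888 CPM. The 5 erythroid markers summed to at most 0.516 CPM, and the 5 thymic epithelial markers to at most 1.13 CPM, with Psmb11 at 0 in all 4 libraries. The 5 B cell markers summed to between 4.02 and 6.04 CPM and the 5 myeloid markers to between 9.14 and 11.9 CPM.

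None of the 8 members passed the criteria for a change between genotypes. These were a DESeq2 Benjamini-Hochberg adjusted p under 0.05, a change of 1.2-fold or more and an average of 1 CPM or more, and they called 431 of the 11625 genes at that average, or 3.71%. Shares of all genes below are of these 11625. At an unadjusted DESeq2 p under 0.05 there were 2 members, Ccne1 and Ccne2, where 13.5% of all genes reached this. The edgeR quasi-likelihood test, which called 0.654% of all genes, and limma voom called 0 members as well. Of the members, 7 averaged 1 CPM or more and 5 of these had a log2 fold change above 0, with a median of 0.21 beside 0.00 over all genes. That median was 0.10 when WT replicate 1 was left out, 0.35 without WT replicate 2, 0.11 without cKO replicate 1 and 0.16 without cKO replicate 2. In 3 of these 7 members, Ccne1, Ccne2 and Cdk4, the lower cKO library exceeded the higher WT library, which held for 24.9% of all genes, and in 0 of the 7 the order was the opposite, which held for 24.0%. With 2 libraries a genotype, the p-values measure the spread between these libraries, which may be partly technical. In such bulk samples, fewer cells of a type and less RNA made per cell cannot be told apart.

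The levels of the members spread widely, and cyclin D3 led them. Per kb of gene, the mean over the 4 libraries was 18.4 ± 1.03 CPM per kb for Ccnd3, 4.75 ± 0.602 for Cdk2, 4.48 ± 0.514 for Cdk4, 2.25 ± 0.164 for Cdk6, 1.39 ± 0.407 for Ccne1, 0.967 ± 0.404 for Ccne2, 0.897 ± 0.0453 for Ccnd2 and 0.0238 ± 0.0202 for Ccnd1 (SD, n = 4 libraries of both genotypes). Ccnd3 was 3.87 times as high as Cdk2, the next member, with no overlap between libraries. Neighbours in this order did not differ beyond their spread for Cdk2 and Cdk4, for Ccne1 and Ccne2, and for Ccne2 and Ccnd2, whose ranges over the libraries overlapped. Ccne1 was above Ccne2 within each of the 4 libraries, Cdk2 was above Cdk4 in 3, and Ccne2 was above Ccnd2 in 2. Among the 11625 genes averaging 1 CPM or more, Ccnd3 ranked 323 by this level, Cdk2 1779, Cdk4 1914, Cdk6 4206, Ccne1 5974, Ccne2 7163 and Ccnd2 7377.

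**Figure D1:**
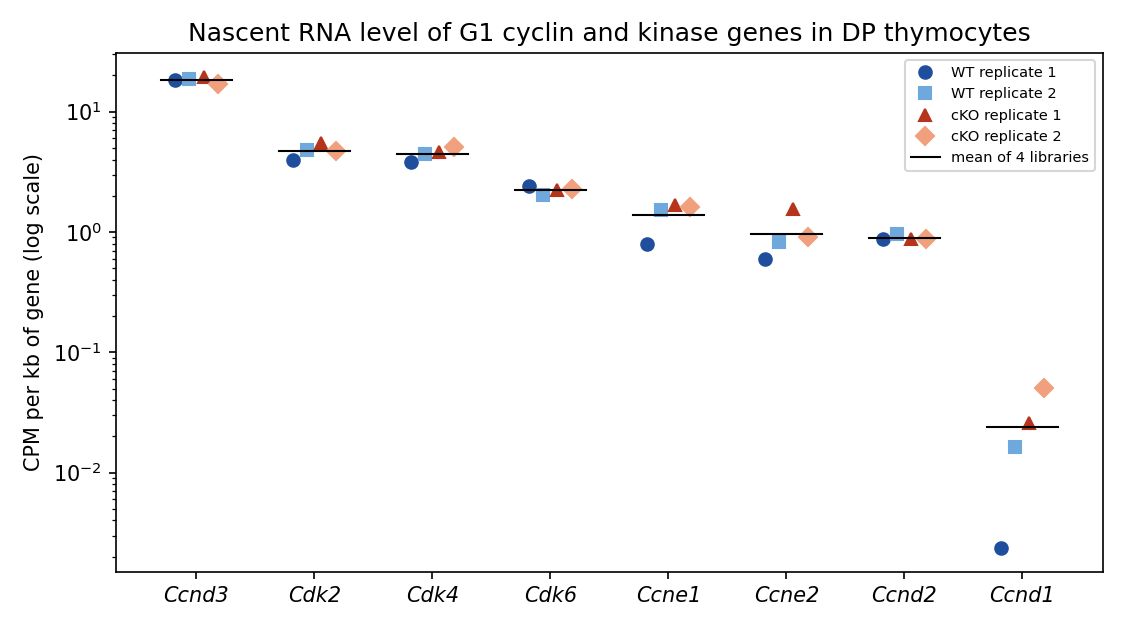
Nascent RNA level of each member in CPM per kb of gene, on a log scale, with 1 point per library and a bar at the mean of the 4 libraries. Ccnd3 sits highest at 18.4 CPM per kb, the kinases lie between 2.25 and 4.75, and Ccnd1 is far below all others at 0.0238.

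The D cyclins connect growth and differentiation signals to CDK4 and CDK6, and in these cells nearly all of their transcription came from 1 gene. Ccnd3 made up between 94.8% and 95.6% of the summed D cyclin level per kb in the 4 libraries. Ccnd2 made up 4.53% and 4.91% in WT and 4.28% and 4.89% in cKO. These shares are descriptions of the 4 libraries, and the genotypes overlapped in each of them.

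Ccnd3, which encodes the D cyclin that thymocytes need for their expansion, lies on GRCm38 chromosome 17 from 47505051 to 47599688 on the plus strand. It was counted at 1726 and 1765 CPM in WT and at 1852 and 1617 CPM in cKO, from 64309.8 to 85940 fragments per library. The cKO libraries lay on either side of the WT libraries. The means were 1746 ± 27.3 CPM in WT and 1735 ± 166 CPM in cKO (SD, n = 2), which DESeq2 fitted as -0.01 on the log2 scale (SE 0.08, adjusted p = 0.978). The 95% interval ran from 0.892 to 1.10 in fold. By CPM it ranked 39 of all 24984 genes. Its level per kb depends on the start that is used. RefSeq gives 2 starts, and the counted span of 94638 bp runs from the upstream one, while transcripts from the downstream one at 47593467 span 6222 bp. Had all fragments fallen in the short span, the level would be 280 CPM per kb, so 18.4 is the lower of these 2 figures and the rank of Ccnd3 above the other members holds for both.

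Ccnd2, the D cyclin of cells that answer to mitogens and cytokines, lies on chromosome 6 from 127125709 to 127151048 on the minus strand. It was at 22.0 and 24.4 CPM in WT and at 22.2 and 22.3 CPM in cKO, from 854 to 1190 fragments. Both cKO libraries lay between the WT libraries. DESeq2 gave a log2 fold change of -0.06 (SE 0.15, adjusted p = 0.915), and the 95% interval ran from 0.784 to 1.17 in fold.

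Ccnd1, the D cyclin of many epithelial and mesenchymal tissues, lies on chromosome 7 from 144929931 to 144939925 on the minus strand. WT libraries held 1 and 8 of its fragments and cKO libraries 10 and 20, which is 0.0235, 0.164, 0.260 and 0.503 CPM. Both cKO libraries were above both WT libraries, but the mean of 0.238 CPM was below the minimum of 1 and DESeq2 gave no adjusted p. Its log2 fold change of 2.003 (SE 1.37) had a 95% interval from -0.67 to 4.68, and ranged from 1.21 to 4.03 when single libraries were left out. The gene LTO1 on the other strand overlaps 8.18% of Ccnd1 and was at 51.7 to 56.3 CPM, and whether any of its fragments were counted for Ccnd1 was not tested.

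The E cyclins showed the largest log2 fold changes among the 7 members that averaged 1 CPM or more, and both depended on single libraries. Ccne1, which activates CDK2 at the G1 to S step, lies on chromosome 7 from 38097984 to 38107490 on the minus strand. It was at 7.51 and 14.4 CPM in WT and at 15.8 and 15.3 CPM in cKO, from 320, 699, 608 and 607 fragments. WT replicate 1 was low and the other 3 libraries lay close together, so that the WT libraries differed from each other by 0.94 on the log2 scale. The means were 10.9 ± 4.84 CPM in WT and 15.5 ± 0.392 CPM in cKO (SD, n = 2). DESeq2 gave a log2 fold change of 0.50 (SE 0.25, unadjusted p = 0.0484, adjusted p = 0.345). It was 0.10 without WT replicate 1 (DESeq2 adjusted p = 0.998), in a fit that called 1.58% of all genes, and 1.05 without WT replicate 2 (DESeq2 adjusted p = 0.00540), in a fit that called 3.84%. In the fits on 3 libraries the lone library of a genotype is assumed to vary like the other pair.

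Ccne2, the second E cyclin, lies on chromosome 4 from 11191351 to 11204779 on the plus strand. It was at 7.98 and 11.2 CPM in WT and at 20.7 and 12.1 CPM in cKO, from 340, 543, 795 and 483 fragments. Both cKO libraries were above both WT libraries, but cKO replicate 2 was closer to WT replicate 2 than to cKO replicate 1. The means were 9.56 ± 2.25 CPM in WT and 16.4 ± 6.04 CPM in cKO (SD, n = 2). This is a log2 fold change of 0.77 (SE 0.25, unadjusted p = 0.00218), with a 95% interval from 1.21 to 2.41 in fold, and the DESeq2 adjusted p of 0.0504 lay just above the threshold. With factors from the total counts the adjusted p was 0.0490 and Ccne2 was called, in a fit that called 3.70% of all genes. With edgeR the adjusted p was 0.244. With single libraries left out, the log2 fold change was 0.35 without cKO replicate 1, 1.10 without cKO replicate 2, 0.54 without WT replicate 1 and 1.04 without WT replicate 2. DESeq2 adjusted p in these fits were 0.9995, 0.0341, 0.824 and 0.0412, and the fits without cKO replicate 1 and 2 called 1.08% and 0.766% of all genes.

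Ccne2 shares 41.9% of its span with Ints8 on the other strand, a subunit gene of the Integrator complex. Ints8 was at 78.6 to 94.2 CPM, or 1.53 CPM per kb beside 0.967 CPM per kb for Ccne2. The counts of Ccne2 were whole numbers in all 4 libraries. Whether counting used the strand is not stated for the table, so the part of Ints8 fragments in the level of Ccne2 was not tested.

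Ccne1 and Ccne2 divided the E cyclin level unevenly between libraries. Ccne1 made up 57.1% and 64.5% of their summed level per kb in WT and 51.9% and 64.0% in cKO. The genotypes overlapped, and replicate 1 was the lower library in both.

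**Figure D2:**
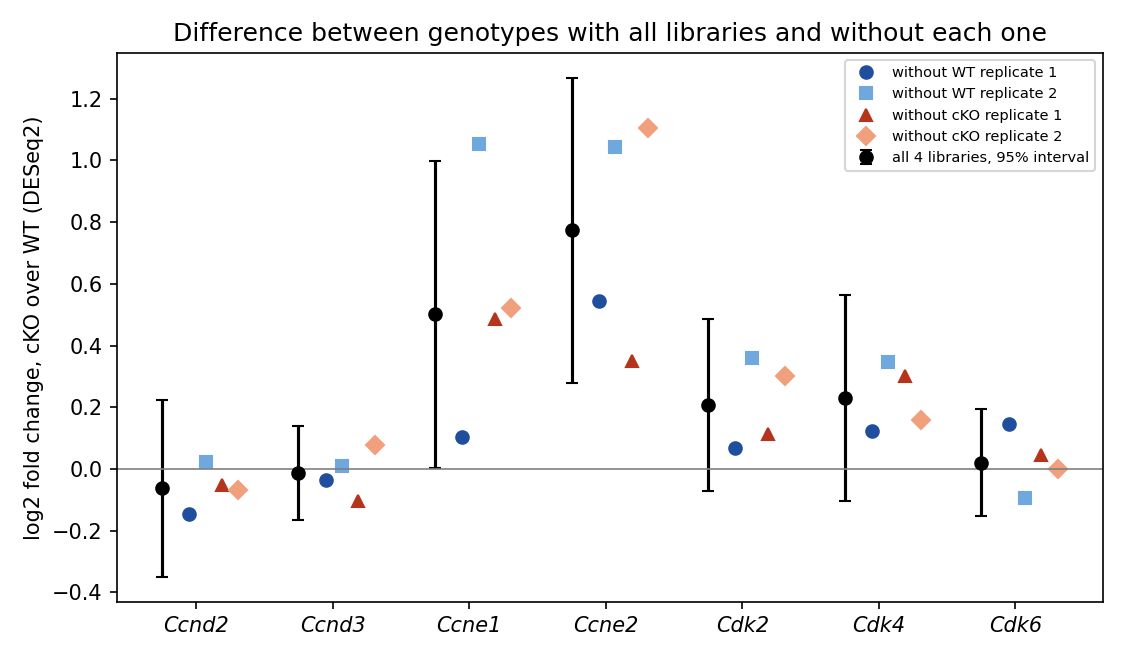
Log2 fold change of cKO over WT by DESeq2 for the 7 members that averaged 1 CPM or more. Black points with bars are all 4 libraries with the 95% interval, and coloured points leave out 1 library each. Ccne1 falls from 0.50 to 0.10 without WT replicate 1, Ccne2 falls from 0.77 to 0.35 without cKO replicate 1, and Ccnd2, Ccnd3 and Cdk6 lie on both sides of 0.

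Of the kinases, Cdk6 had both cKO libraries inside the WT range, while Cdk4 had both cKO libraries above the WT range without passing the test, and Cdk2 overlapped between genotypes. Cdk6, the partner of cyclin D3 in thymocytes, lies on chromosome 5 from 3343893 to 3531005 on the plus strand. It was at 455 and 381 CPM in WT and at 419 and 429 CPM in cKO, from 16116 to 19382 fragments. Both cKO libraries again fell between the WT libraries. DESeq2 gave a log2 fold change of 0.02 (SE 0.09, adjusted p = 0.961), and the 95% interval ran from 0.900 to 1.14 in fold. With 187113 bp it is the longest member, and it ranked 372 by CPM but 4206 per kb.

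Cdk4, the other partner of the D cyclins, lies on chromosome 10 from 127063535 to 127067288 on the plus strand. It was at 14.4 and 16.6 CPM in WT and at 17.4 and 19.0 CPM in cKO, from 612 to 808 fragments. Both cKO libraries were above both WT libraries. Its log2 fold change of 0.23 (SE 0.17, adjusted p = 0.607 by DESeq2) had a 95% interval from -0.10 to 0.56. It was 0.12 when WT replicate 1 was left out and 0.35 when WT replicate 2 was. Cdk6 made up 38.9% and 31.5% of the summed level per kb of Cdk4 and Cdk6 in WT and 32.6% and 31.2% in cKO, so the short Cdk4 gene was transcribed at about double the density of Cdk6 in these cells.

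Cdk2, the kinase of the E cyclins, lies on chromosome 10 from 128697939 to 128705051 on the minus strand. It was at 28.3 and 34.3 CPM in WT and at 38.7 and 33.8 CPM in cKO, from 1206 to 1670 fragments. WT replicate 1 was lowest and cKO replicate 1 highest, and the second libraries of the genotypes lay close together, so that the genotypes overlapped. Its log2 fold change of 0.21 (SE 0.14, adjusted p = 0.567 by DESeq2) had a 95% interval from -0.07 to 0.49. Without WT replicate 1 it was 0.07.

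Over the 4 libraries the members did not share a single profile. Likeness was taken as the root mean square distance between log2(CPM + 0.5) values, each centred on the gene's own mean. Ccnd2 and Ccnd3 were the closest pair at 0.0855, followed by Cdk2 and Cdk4 at 0.116. Ccne2 and Cdk6 were farthest apart at 0.509, and Ccne1 and Ccne2 were 0.301 apart. The genes closest to Ccnd3 among 8146 genes averaging 10 CPM or more were Mis18a, Ywhag and Eif4g1, at distances of 0.00772, 0.00888 and 0.00984. With 4 libraries and so many genes such small distances describe these libraries only.

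**Figure D3:**
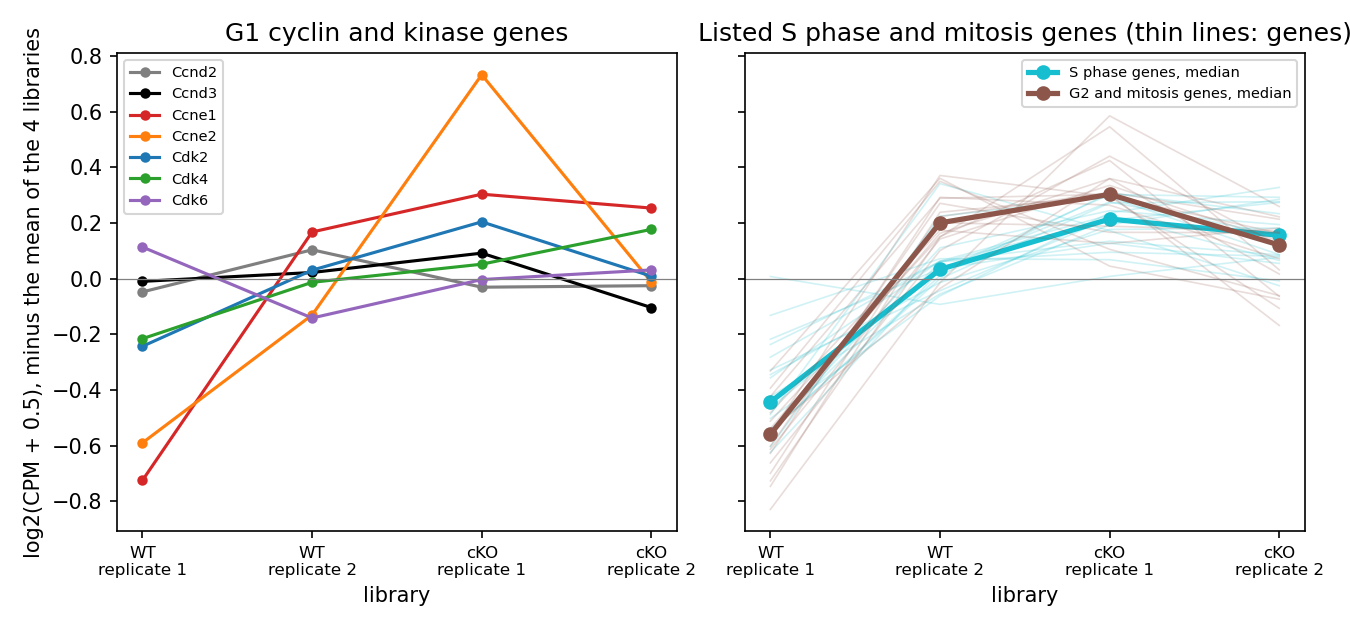
Left, log2(CPM + 0.5) of the 7 members that averaged 1 CPM or more, in each library, minus the mean of the 4 libraries. Right, the same for the listed S phase and G2 and mitosis genes, with thin lines for genes and thick lines for the median of each list. WT replicate 1 is lowest for Ccnd2, Ccne1, Ccne2, Cdk2 and Cdk4 and for the medians of both lists, and Cdk6 is highest there.

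The other genes of the pathway were followed through 8 lists with 109 genes, of which 105 averaged 1 CPM or more. DESeq2 called 10 of them, 9 increased and 1 decreased, where 2.14% of all genes were increased and 1.57% decreased. This count was 2 with edgeR, which called 0.654% of all genes, and 2 with voom. It fell without WT replicate 1 or without either cKO library, and rose without WT replicate 2. The count over all genes moved the same way in these fits. Of 4 CDK inhibitor genes at that average, 0 were called, and the median log2 fold change was 0.15 beside 0.00 for all genes. Without WT replicate 1 this median was -0.08 and without WT replicate 2 it was 0.45. Cdkn1b, which encodes p27 and had the highest level of the list per kb, was at 169 and 178 CPM in WT and at 167 and 164 CPM in cKO (log2 fold change -0.07, DESeq2 adjusted p = 0.803).

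Among 13 RB and E2F genes, the targets of the G1 kinases, E2f3 was increased and 0 were decreased, with a median of 0.23 that was 0.12 when WT replicate 1 and 0.32 when WT replicate 2 was left out. E2f3, an activating E2F, was at 109 and 136 CPM in WT and at 185 and 173 CPM in cKO, both cKO libraries above both WT libraries. Its log2 fold change was 0.55 (SE 0.11, DESeq2 adjusted p = 4.99e-05). The call held without WT replicate 1 (DESeq2 adjusted p = 0.0259) but not without cKO replicate 1 (0.0972) or with edgeR (0.0873). E2f4, a repressing E2F and the highest of the list per kb, had a log2 fold change of -0.01 (DESeq2 adjusted p = 0.983).

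Of 13 regulators of D cyclin and Cdk6 transcription, DESeq2 called 4 increased and 1 decreased, where 2.14% of all genes were increased and 1.57% decreased. The median was 0.06, and ran from -0.00845 to 0.14 when single libraries were left out. This list was chosen with earlier results of these data known, so its number of calls does not rank it among the lists. Notch3, a Notch receptor of early thymocytes, was at 22.5 and 25.4 CPM in WT and at 55.1 and 61.8 CPM in cKO. Both cKO libraries were more than double either WT library. The difference, 1.28 on the log2 scale by DESeq2 (SE 0.13, adjusted p = 1.71e-20), was also called without each library in turn and by edgeR (adjusted p = 0.00812). Notch1, the receptor that commits cells to the T lineage, rose from 162 and 176 CPM in WT to 231 and 237 CPM in cKO (log2 fold change 0.47, SE 0.08, DESeq2 adjusted p = 3.59e-06). Its call held without WT replicate 1 (DESeq2 adjusted p = 0.00733) and with edgeR (0.0389) but not without cKO replicate 2 (0.0615).

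The other 3 calls of this list were lost with edgeR and in 3 of the 4 fits without a single library. Myc, a growth regulator that binds E-boxes, was at 6.63 and 9.51 CPM in WT and at 14.8 and 13.6 CPM in cKO (log2 fold change 0.81, DESeq2 adjusted p = 0.0103), and without WT replicate 1 its log2 fold change was 0.57 (adjusted p = 0.562). Bcl6, a repressor of transcription, was at 144 and 176 CPM in WT and at 208 and 193 CPM in cKO (log2 fold change 0.33, DESeq2 adjusted p = 0.0388), and without WT replicate 1 its log2 fold change was 0.18 (adjusted p = 0.833). Tcf7, which encodes the T lineage factor TCF1, fell from 4019 and 4236 CPM in WT to 3679 and 2919 CPM in cKO (log2 fold change -0.33, DESeq2 adjusted p = 0.0174). Its log2 fold change was -0.37 without WT replicate 1, where the call was lost (adjusted p = 0.991), -0.28 without WT replicate 2 (0.900), -0.17 without cKO replicate 2 (0.910) and -0.49 without cKO replicate 1, where it was kept (0.00175). Beside these, the members whose transcription this list is known to govern had log2 fold changes of -0.01 for Ccnd3, -0.06 for Ccnd2, 0.02 for Cdk6 and 2.003 for Ccnd1, the last from at most 20 fragments per library.

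Of 5 genes for CDK activation and folding and of 12 genes for cyclin turnover, 0 were called, with medians of 0.13 and 0.08, which ranged from 0.06 to 0.14 and from -0.01 to 0.07 when single libraries were left out. Cdc37, the chaperone partner that folds CDK4 and CDK6, had a log2 fold change of -0.13 (DESeq2 adjusted p = 0.634). Fzr1, an activator of the anaphase-promoting complex, was at 98.7 and 99.8 CPM in WT and at 351 and 63.9 CPM in cKO, so the 2 cKO libraries went opposite ways (log2 fold change 1.06, DESeq2 adjusted p = 0.735). It was called increased without cKO replicate 2 (log2 fold change 1.82) and decreased without cKO replicate 1 (-0.63). Of 23 other cyclin and CDK genes averaging 1 CPM or more, 0 were called, with a median of 0.03, and Ccng2, the highest of them per kb, had a log2 fold change of -0.07 (DESeq2 adjusted p = 0.831).

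The genes downstream of the G1 step moved with WT replicate 1. Of 18 S phase genes, 3 were increased, namely Rrm1 for a subunit of ribonucleotide reductase and Cdc6 and Cdc45 for DNA replication, and the median was 0.36. DESeq2 gave these 3 genes log2 fold changes of 0.47, 0.52 and 0.56 (adjusted p = 0.0309, 0.0350 and 0.0414). Pcna, the highest of the list per kb, was not called (0.16, DESeq2 adjusted p = 0.586). Summed over the list, S phase genes were at 651 and 850 CPM in WT and at 938 and 913 CPM in cKO. Of 17 G2 and mitosis genes 1 was increased, Kif11 for a spindle motor (log2 fold change 0.56, DESeq2 adjusted p = 0.00818), and Mki67, the proliferation marker and the highest per kb, was not called (0.53, DESeq2 adjusted p = 0.725). The median was 0.34, and the sums were 374 and 651 CPM in WT and 750 and 610 CPM in cKO. WT replicate 1 was below WT replicate 2 in 17 of 18 and in 17 of 17 genes, by medians of -0.43 and -0.76 on the log2 scale. Without WT replicate 1 the medians between genotypes were 0.15 and -0.02 with 0 genes called in either list, as also without either cKO library, and without WT replicate 2 they were 0.63 and 0.79 with 11 called in each. Ccne1 and Ccne2 were lowest in the same library, and leaving it out took their log2 fold changes from 0.50 to 0.10 and from 0.77 to 0.54.

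**Figure D4:**
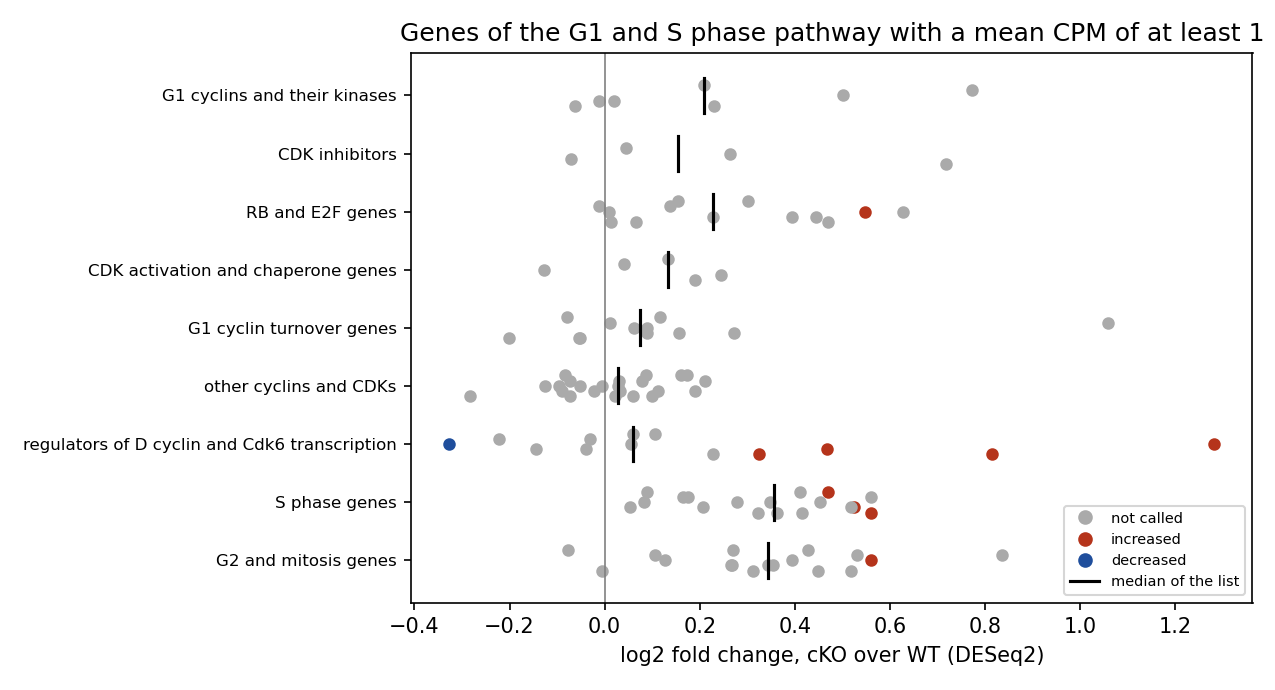
Log2 fold change of cKO over WT for each gene averaging 1 CPM or more, by list, with called genes in red (increased) or blue (decreased) and a black bar at the median of each list. The G1 cyclins and kinases have a median of 0.21 and hold 0 called genes, and the S phase and the G2 and mitosis genes have medians of 0.36 and 0.34.

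Markers of neighbouring stages are given beside the members. Of 4 markers of earlier double negative cells, 2 had a log2 fold change above 0, and the median was 0.07. Among them Il7r, the interleukin 7 receptor gene, was increased (log2 fold change 0.36, DESeq2 adjusted p = 0.0125). Its call was lost with edgeR (0.0924), with voom (0.107) and without each single library. The list summed to 125 and 118 CPM in WT and to 142 and 139 CPM in cKO. Among markers of mature single positive cells, Ccr7, a chemokine receptor gene, was decreased (-0.34, DESeq2 adjusted p = 0.00714). Its call was lost with edgeR (0.137), voom (0.127) and a replicate block (0.0581 by DESeq2 and 0.100 by edgeR). It was also lost without WT replicate 1, where the log2 fold change was -0.32, and without cKO replicate 2, where it was -0.23. Klf2, the highest of that list per kb, was not called (-0.28, DESeq2 adjusted p = 0.256). Of 9 DP markers Cd8a (-0.54, DESeq2 adjusted p = 1.21e-05) and Rag1 (-0.31, DESeq2 adjusted p = 0.0499) were decreased, with sums of 3213 and 3888 CPM in WT and 3296 and 3066 CPM in cKO. The call of Cd8a was kept without each library but not with edgeR (0.0887). That of Rag1 was lost with edgeR (0.254), voom (0.253), TMM factors (0.0580), total count factors (0.0522), either replicate block and without WT replicate 2, where its log2 fold change was -0.12 (0.767), and without either cKO library. Of markers of other lineages, 0 were called. The 2 B cell markers averaging 1 CPM or more had log2 fold changes below 0 (median -0.38). The 2 such myeloid markers had log2 fold changes above 0 (median 0.43). Among myeloid markers Cd68 was at 327 and 268 fragments in WT and 354 and 299 in cKO, while Lyz2, chosen after its values were seen, was at 57 and 59 in WT and 12 and 27 in cKO. Among B cell markers Cd79b was at 209 and 170 fragments in WT and 159 and 92 in cKO. Cd79a, chosen likewise and averaging only 0.471 CPM, was at 8 and 15 in WT and 33 and 21 in cKO. The part of such shifts in the levels of the cyclins and kinases was not tested.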

How the data were processed

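TTchem-seq libraries of DP thymocytes, 2 WT and 2 cKO, grouped by sample title, were analysed. The deposited values were expected counts, fragments per gene made by the authors, of which 8.61% were fractional. The submitters' processing notes name fastp 0.13.1, STAR 2.7.9a, featureCounts 1.6.1 and build mm10, and the study's methods name STAR gene counts. The deposited lengths, an additional column in bp, span introns. Strand use was not stated for the table, fragments carried no molecular identifiers, and the yeast spike-in was not used here.

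Counts were rounded and fitted over the whole table with the DESeq2 1.42.0 Wald test (R 4.3.3), the tool the study names, without covariates. Fold changes were not shrunken, and p-values were adjusted over all genes by Benjamini-Hochberg. CPM used the totals of the table, and levels between genes were compared per kb of deposited length. Alternatives were edgeR 4.0.16, limma 3.58.1 voom, other scaling factors and filters, a replicate block and leaving out each library. Scripts were tested on simulated data. Python 3.11.15, pandas 2.3.3, numpy 2.4.6 and matplotlib 3.10.9 were used for the rest.

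The members and the gene lists were chosen with earlier results of these data known. Named were all members, Tox4, every called list gene (with an exception that is not reported here), the list gene with the highest level per kb, and the 3 genes nearest to the member with the highest level per kb.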

Additional observations from a re-analysis of the deposited data

How the results depend on the processing

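No member was called under 12 of 15 settings. With total count factors 1 was called (Ccne2), and leaving out single libraries gave 0 to 2, namely Ccne1 and Ccne2 without WT replicate 2 and Ccne2 without cKO replicate 2. Leave-one-out log2 fold changes crossed 0 for Ccnd2 (-0.15 to 0.0236), Ccnd3 (-0.10 to 0.0781) and Cdk6 (-0.10 to 0.14). Over 108 alternatives for the 8 members, 99 kept their direction and their side of the threshold, 4 passed it and 5 turned direction. Those without the mean CPM or the fold change criterion reused the main fit, so they could not turn direction. Independent filtering off also kept the log2 fold changes of the main fit. Ccnd1 had an adjusted p only with independent filtering off, where its mean of 0.238 CPM kept it from being called. Over all genes, 249 were increased and 182 decreased, against 59 and 17 with edgeR, 57 and 16 with voom, and 61 to 320 and 28 to 126 without single libraries. Deviations of same-numbered libraries from their genotype mean had a correlation of -0.03 over 11625 genes. The precursor ribosomal RNA gene Rn45s held 2.71% (WT) and 2.44% (cKO) of fragments in replicate 1. In replicate 2 it held 4.30% (WT) and 4.05% (cKO). Whether the replicate numbers mark a shared preparation was not tested. With a replicate block 121 and 72 (DESeq2) or 67 and 29 (edgeR) were called. Of the pathway genes 10 were called, against 2 with edgeR, 2 with voom, 6 without independent filtering, 4 and 2 with the replicate block in DESeq2 and edgeR, and 3 (without WT replicate 1 or cKO replicate 2) to 32 (without WT replicate 2) with single libraries left out. Leave-one-out list medians crossed 0 for CDK inhibitors (-0.0832 to 0.45), cyclin turnover (-0.0125 to 0.0658), regulators of D cyclin and Cdk6 transcription (-0.00845 to 0.14) and G2 and mitosis genes (-0.0182 to 0.79). The causes of these shifts were not tested. Without division by length, the mean shares were 98.7% for Ccnd3 and 1.29% for Ccnd2 among D cyclins, 50.9% for Ccne1 among E cyclins, 96.1% for Cdk6 beside Cdk4, and 7.20% for Cdk2 among the 3 kinases. Depth limits Ccnd1, with 1 to 20 fragments per library.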
